A study of Rattus norvegicus with 32 samples.

Results

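Ttr, Folr1, Kl, Aqp1, Clic6, Kcnj13, Otx2, Prlr, Slc4a5 and Enpp2 are 10 genes used to mark the epithelium of the choroid plexus, and they were followed through 32 RNA-seq libraries of the rat brain. They were taken by gene name from the 28914 genes of the count files, and all 10 were found. The libraries came from male Sprague-Dawley rats and from 4 brain regions: the nucleus accumbens (NAc), the dentate gyrus (DG) and the Ammon's horn (CA) of the hippocampus, and the subventricular zone (SVZ). Rats received 4 intraperitoneal injections, 2 h apart, of methamphetamine (METH, 10 mg/kg each) or of saline (Sal, 1 mL/kg each), and brains were dissected 24 h after the final injection. From each region came 4 Sal and 4 METH libraries of total RNA depleted of ribosomal RNA, which are named by region, treatment and replicate (DG Sal 4). Dissected tissue was sequenced whole, so more plexus cells and more RNA per plexus cell cannot be told apart.

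The choroid plexus is a fringe of vascular tissue covered by a secretory epithelium, which hangs in the brain ventricles and makes cerebrospinal fluid. It borders the SVZ and the hippocampus without being part of either, and it carries ions, water, vitamins and hormones between blood and fluid. Its cells take up folate through the receptor encoded by Folr1, move ions and water through the products of Slc4a5, Kcnj13, Clic6 and Aqp1, respond to hormones through Prlr and Kl, and release the proteins encoded by Ttr and Enpp2, while Otx2 encodes a homeobox factor that the plexus needs to form.

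OTX2 binds DNA at sites built on the letters TAATC, and the classical site is TAATCC. RefSeq sequence (build GRCr8) was held here for the starts of 6 members: Ttr, Kl, Aqp1, Kcnj13, Prlr (2 starts) and Slc4a5. The 250 bases before each start were searched on both strands. TAATCC was in 0 of these 7 windows and in 6.34% of all 33469 rat windows. The core TAATC, which lies within TAATCC and was chosen after the longer site had been searched, was in the windows of 3 members and in 20.5% of all windows. These 3 windows are shown, 5′ to 3′, because the members were high in the same libraries, and capitals mark TAATC or its reverse complement GATTA. The Ttr window (chr18:12218508-12218757, plus strand) held the core at 77 to 73 and at 12 to 8 bases before the start. The Kl window (chr12:5325753-5326002, plus strand) held it at 93 to 89 bases and the Kcnj13 window (chr9:95518987-95519236, minus strand) at 243 to 239 bases before the start. Of all rat windows, 3.37% held 2 or more cores, as the Ttr window did.
Ttr: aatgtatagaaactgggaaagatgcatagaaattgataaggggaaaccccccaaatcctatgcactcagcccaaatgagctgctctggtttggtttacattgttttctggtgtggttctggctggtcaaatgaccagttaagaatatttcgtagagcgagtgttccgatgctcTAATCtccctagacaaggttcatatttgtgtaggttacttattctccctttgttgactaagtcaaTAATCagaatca
Kl: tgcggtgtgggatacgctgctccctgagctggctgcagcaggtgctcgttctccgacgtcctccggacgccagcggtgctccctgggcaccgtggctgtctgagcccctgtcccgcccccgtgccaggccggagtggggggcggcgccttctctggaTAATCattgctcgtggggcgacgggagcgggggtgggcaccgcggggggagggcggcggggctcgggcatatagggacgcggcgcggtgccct
Kcnj13: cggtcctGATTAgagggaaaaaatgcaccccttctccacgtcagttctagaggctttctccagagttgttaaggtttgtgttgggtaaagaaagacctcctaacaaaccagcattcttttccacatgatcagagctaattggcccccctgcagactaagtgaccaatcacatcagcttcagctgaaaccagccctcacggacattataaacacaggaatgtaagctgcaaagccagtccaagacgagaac

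The libraries held 11094002 to 21869773 counts each (median 14533166.5), and 1 read was worth 0.0442 to 0.0934 CPM, a read count scaled by the upper-quartile library size to a common total. The smallest values given here are therefore 1 or a few reads. Regional markers were checked as summed CPM. Striatal neuron markers were at 1678 to 9276 CPM in 7 NAc libraries but at 262 in NAc METH 3. They reached 1997 in DG Sal 3 and 6489 in SVZ Sal 3. Thalamic neuron markers were at 1768 CPM in SVZ Sal 1, 1528 in SVZ METH 2 and 1067 in SVZ METH 4. They were at 98.7 to 483 CPM in the other SVZ libraries. Striatal markers were at 338, 239 and 893 CPM in SVZ Sal 1, SVZ METH 2 and SVZ METH 4. Dentate granule markers were at 95.3 to 516 CPM in the DG and at 120 to 559 in the CA, so this list did not separate these 2 regions. Library numbers in the file headers place DG Sal 1 and 2 and DG METH 1 and 2 with the other treatment of the NAc and CA, and SVZ METH 3 and 4 share the number 1670. The labels were kept as given. 4 libraries stood far apart in the plexus genes: SVZ METH 3, DG METH 3, CA Sal 2 and DG Sal 4.

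Ttr encodes transthyretin, the carrier of thyroid hormone and retinol-binding protein that the plexus epithelium secretes. The gene lies on the minus strand of rn6, at chr18:15532963-15540177, with 701 exonic bases. In the NAc, Ttr had 3, 100, 2 and 5 reads in Sal 1 to 4 and 0, 13, 118 and 0 reads in METH 1 to 4. NAc Sal 2 and NAc METH 3 thus had 100 and 118 reads, and the other 6 NAc libraries had 13 or fewer. In the DG, Sal 1 to 4 had 1, 1734, 13 and 21936 reads and METH 1 to 4 had 49, 66, 114508 and 371 reads. In the CA, Sal 1 to 4 had 228, 24426, 55 and 13 reads and METH 1 to 4 had 15, 3894, 33 and 114 reads. In the SVZ, Sal 1 to 4 had 6965, 24, 2148 and 445 reads and METH 1 to 4 had 5, 1842, 161094 and 311 reads. Within DG Sal, DG METH, CA Sal, CA METH and SVZ METH, 1 library each stood far above its 3 replicates, and the Sal and METH ranges overlapped in all 4 regions. Ttr took 0.808% of all counts in SVZ METH 3 and 0.566% in DG METH 3.

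The mean of a group followed its highest library. Ttr averaged 1809 ± 3546 CPM (SD, n = 4) in SVZ METH, 1325 ± 2629 in DG METH, 481 ± 859 in DG Sal and 480.5 ± 949 in CA Sal. It averaged 115 ± 149 CPM in SVZ Sal, 80.8 ± 154 in CA METH, 2.28 ± 3.87 in NAc METH and 1.82 ± 3.13 in NAc Sal. The SD was larger than the mean in all 8 groups. SVZ METH 3 held 98.5% of the summed Ttr CPM of its group, DG METH 3 held 99.4%, CA Sal 2 held 99.1%, CA METH 2 held 96.4% and DG Sal 4 held 91.8%. The order by median was another: DG Sal (79.0 CPM), SVZ Sal (64.4), SVZ METH (54.7), DG METH (14.1), CA Sal (8.31), CA METH (5.18), NAc METH (0.548) and NAc Sal (0.296). Neighbours in this order overlapped in their ranges, so no step of it exceeded the spread.

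**Figure D1:**
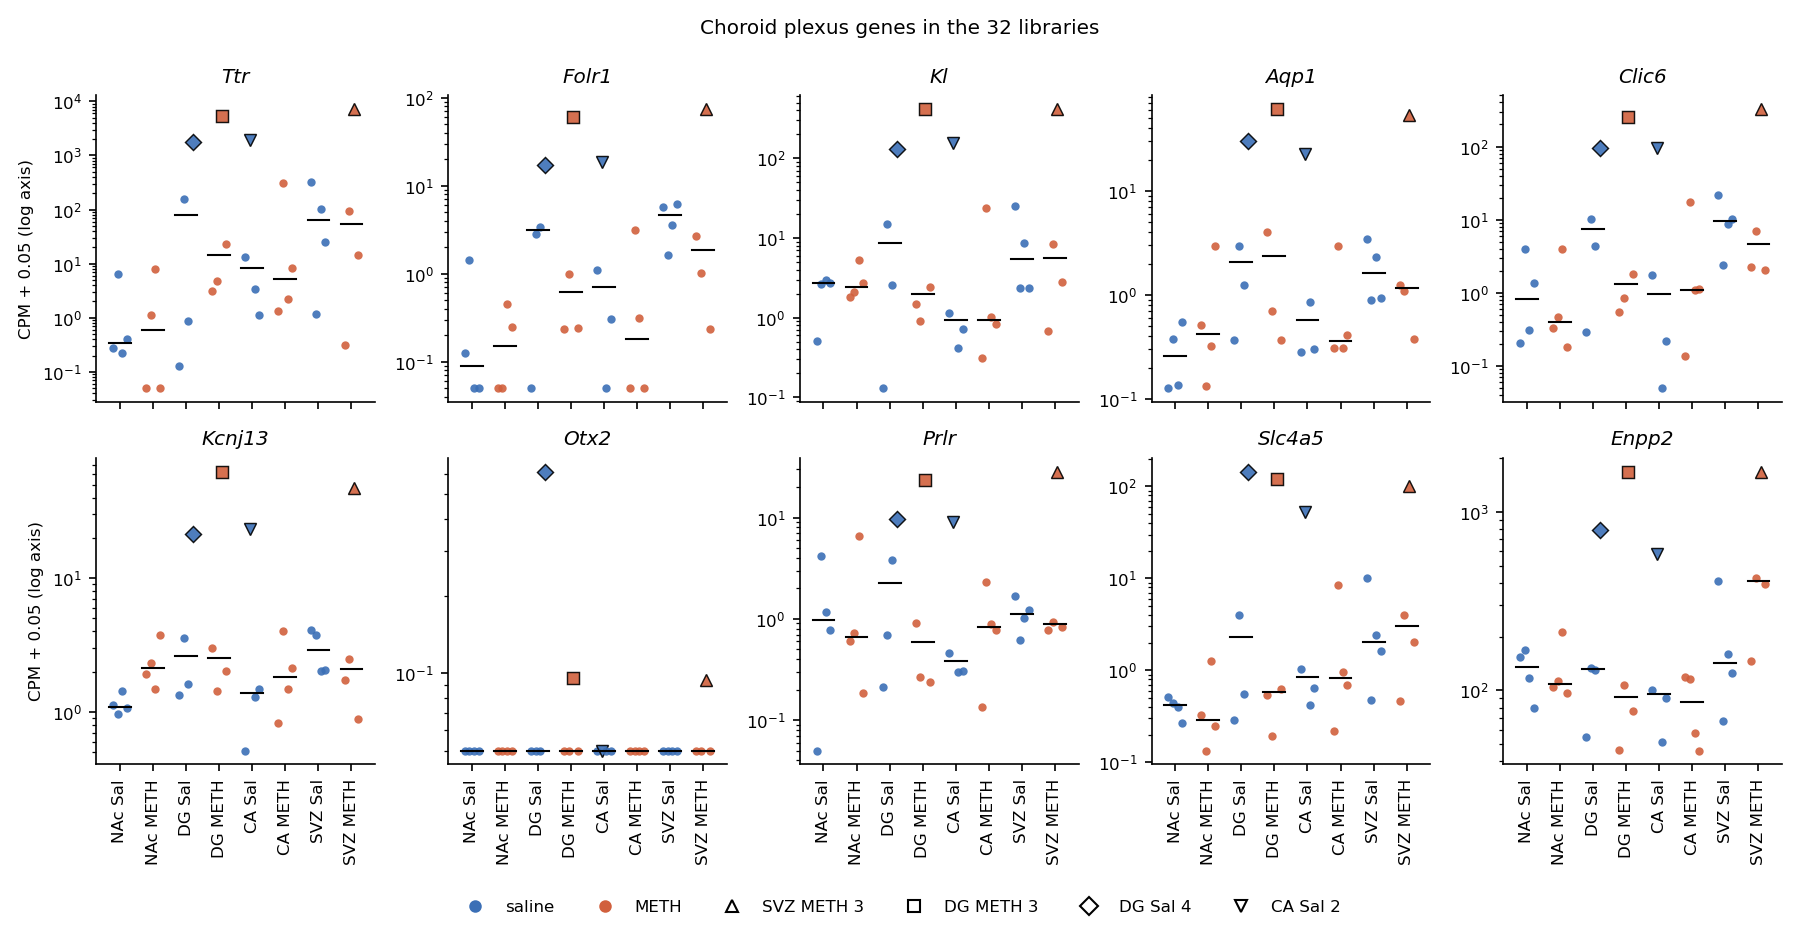
CPM of each member in the 32 libraries, with 0.05 added and a log vertical axis per gene. Points are libraries, short bars are group medians over 4 libraries, and the 4 outlined symbols are SVZ METH 3, DG METH 3, DG Sal 4 and CA Sal 2, which lead in 9 of the 10 members.

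Folr1, the folate receptor that loads folate into cerebrospinal fluid, followed the same libraries at a lower level. It was at 0, 2.81, 3.35 and 17.2 CPM in DG Sal 1 to 4 and at 0.186, 0.940, 60.8 and 0.190 CPM in DG METH 1 to 4. In SVZ Sal 1 to 4 it was at 5.70, 1.59, 3.53 and 6.08 CPM, and in SVZ METH 1 to 4 at 2.61, 0.979, 74.2 and 0.185 CPM. Among the SVZ METH libraries 3 lay below the SVZ Sal median and 1 far above every SVZ Sal library. CA Sal 1 to 4 were at 1.04, 18.8, 0 and 0.252 CPM and CA METH 1 to 4 at 0, 3.12, 0.260 and 0 CPM. In the NAc no library exceeded 1.37 CPM, and over all 32 libraries 13 had 3 reads or fewer.

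Slc4a5 encodes a sodium bicarbonate cotransporter of the apical plexus membrane. It was at 0.241, 3.99, 0.505 and 145 CPM in DG Sal 1 to 4 and at 0.496, 0.145, 119 and 0.569 CPM in DG METH 1 to 4. It was the member measured beyond a few reads whose highest library was DG Sal 4, not DG METH 3 or SVZ METH 3. CA Sal 1 to 4 were at 0.986, 52.2, 0.370 and 0.589 CPM and CA METH 1 to 4 at 0.172, 8.48, 0.910 and 0.649 CPM. SVZ Sal 1 to 4 were at 9.98, 0.421, 2.37 and 1.56 CPM and SVZ METH 1 to 4 at 0.418, 3.97, 100.2 and 2.00 CPM. The lowest libraries of each group were below 1 CPM, and the NAc libraries ranged from 0.0843 to 1.23 CPM.

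Clic6, a chloride channel protein of secretory epithelia, was at 0.241, 10.3, 4.29 and 96.2 CPM in DG Sal 1 to 4 and at 0.496, 0.795, 256 and 1.77 CPM in DG METH 1 to 4. It was at 1.68, 96.7, 0 and 0.168 CPM in CA Sal 1 to 4 and at 0.0859, 17.2, 1.04 and 1.08 CPM in CA METH 1 to 4. SVZ Sal 1 to 4 had 21.8, 2.39, 8.71 and 10.3 CPM and SVZ METH 1 to 4 had 2.25, 6.91, 323 and 2.00 CPM. As for Folr1, 3 of the 4 SVZ METH libraries lay below the SVZ Sal median. Aqp1, the water channel of the apical membrane, reached 61.1 CPM in DG METH 3, 54.0 in SVZ METH 3, 30.3 in DG Sal 4 and 22.4 in CA Sal 2. Elsewhere Aqp1 did not exceed 3.97 CPM. It was at 3.97 CPM in DG METH 1 and 2.94 in NAc METH 4, where Ttr was at only 3.04 and 0 CPM. The summed markers of meninges and fibroblasts were also high in these 2 libraries, at 159.6 and 142 CPM against a median of 42.7 over all libraries, and their part in the Aqp1 level was not tested.

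Kcnj13 encodes the inward rectifier potassium channel Kir7.1. It was at 1.29, 3.54, 1.58 and 21.3 CPM in DG Sal 1 to 4, at 2.98, 1.37, 62.6 and 1.96 CPM in DG METH 1 to 4, and at 1.67, 2.42, 46.8 and 0.835 CPM in SVZ METH 1 to 4. In the NAc it was at 1.08, 0.912, 1.39 and 1.01 CPM in Sal 1 to 4 and at 1.87, 2.28, 1.43 and 3.74 CPM in METH 1 to 4. Each NAc METH library was above each NAc Sal library, the only such separation among the 10 members in the METH comparisons, beside 2.30% of all genes tested in the NAc, 6.80% in the DG, 4.44% in the CA and 1.69% in the SVZ. Its 1257 exonic bases share 355 with AABR07068272.1 on the opposite strand, and counting did not use strand, so reads of these genes cannot be told apart there. AABR07068272.1 had 1449 to 3703 reads in the libraries. In the count matrix of the whole series, made by another count, Kcnj13 had 3, 3, 0 and 0 reads in NAc Sal 1 to 4 and 2, 3, 9 and 46 reads in NAc METH 1 to 4. These groups overlapped. The matrix was lower than the sample files in 27 of 32 libraries and higher in 5, among them DG METH 3 with 1748 against 1360 reads.

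Kl encodes klotho, a membrane and secreted protein that the plexus makes in quantity. It was at 0.0804, 14.8, 2.52 and 129.7 CPM in DG Sal 1 to 4 and at 1.43, 0.868, 414 and 2.40 CPM in DG METH 1 to 4. CA Sal 1 to 4 were at 1.10, 156, 0.370 and 0.673 CPM and CA METH 1 to 4 at 0.258, 23.9, 0.975 and 0.793 CPM. SVZ Sal 1 to 4 were at 25.5, 2.34, 8.57 and 2.34 CPM and SVZ METH 1 to 4 at 0.627, 8.35, 411 and 2.78 CPM. The 5 highest libraries were those of Ttr, with DG METH 3 and SVZ METH 3 nearly equal, and in the NAc Kl was at 0.463 to 5.24 CPM. Prlr, the prolactin receptor, reached 28.4 CPM in SVZ METH 3, 23.4 in DG METH 3, 9.65 in DG Sal 4 and 8.96 in CA Sal 2. It was also at 6.60 CPM in NAc METH 3 and 4.17 in NAc Sal 2, where Ttr was at 8.03 and 6.52 CPM.

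Otx2 was all but absent from the counts, which cover 870 exonic bases of the gene. Reads from any part of its transcript outside these bases were not counted. It had 7 reads in DG Sal 4, 1 in DG METH 3, 1 in SVZ METH 3 and 0 in the other 29 libraries, so it entered no test. A count of 0 allows up to 3 reads, a limit of 0.133 to 0.280 CPM over the 32 libraries, for counting error only. In SVZ METH 3, which had 161094 Ttr reads, the defining transcription factor of the tissue was therefore at the floor.

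Enpp2 encodes autotaxin, the secreted enzyme that makes lysophosphatidic acid, and oligodendrocytes also express it. It was well measured in every library, from 45.9 to 1679 CPM with a median of 118. SVZ METH 3 and DG METH 3 led with 1679 and 1663 CPM, followed by DG Sal 4 with 789 and CA Sal 2 with 579. SVZ METH 1 to 4 were at 146, 425, 1679 and 396 CPM and SVZ Sal 1 to 4 at 412, 67.5, 159 and 124 CPM. In SVZ METH 2 and 4, where Ttr was at 94.9 and 14.4 CPM, the summed oligodendrocyte markers were at 27020 and 28530 CPM, the highest of all libraries. The part of oligodendrocyte RNA in the Enpp2 level was not tested.

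Compared per kilobase of exon, the members differed widely in level. In their highest library, CPM per kilobase was 10170 for Ttr, 633 for Enpp2, 108 for Kl, 88.6 for Clic6, 71.3 for Folr1, 49.8 for Kcnj13, 38.7 for Slc4a5, 21.1 for Aqp1, 9.56 for Prlr and 0.647 for Otx2. By the median over 32 libraries Enpp2 led with 44.4 and Ttr followed with 8.05. The highest library exceeded the median of the 32 libraries 1263-fold for Ttr, and for the other members in the order Slc4a5 250.2-fold, Clic6 171-fold, Kl 168-fold, Folr1 110.0-fold, Aqp1 84.1-fold, Prlr 37.4-fold, Kcnj13 32.7-fold and Enpp2 14.3-fold.

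The members were high in the same libraries. SVZ METH 3 and DG METH 3 were the highest 2 libraries for 8 of the 10 members, against 1.55% of the 16122 genes kept in the analysis of all libraries, and these 2 libraries with DG Sal 4 and CA Sal 2 were the highest 4 for 9 of 10. The pair of libraries was named after its values were seen, so the contrast with 1.55% is a description and no test. On log2(CPM + 1) over 32 libraries, Pearson's r with Ttr was 0.94 for Clic6 (Spearman's rho 0.82), 0.93 for Slc4a5 (0.85), 0.92 for Kl (0.68), 0.86 for Folr1 (0.71) and 0.84 for Aqp1 (0.55). It was 0.82 for Kcnj13 (rho 0.52), 0.80 for Enpp2 (0.57), 0.75 for Prlr (0.61) and 0.40 for Otx2 (0.49). Without SVZ METH 3 and DG METH 3, the farthest from the Ttr median, r was 0.91 for Clic6, 0.90 for Slc4a5, 0.88 for Kl, 0.79 for Folr1, 0.74 for Aqp1, 0.70 for Kcnj13, 0.67 for Enpp2, 0.59 for Prlr and 0.43 for Otx2. These values describe the 32 libraries: both genes of a point share 1 library and its depth, and the same library numbers recur among regions.

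**Figure D2:**
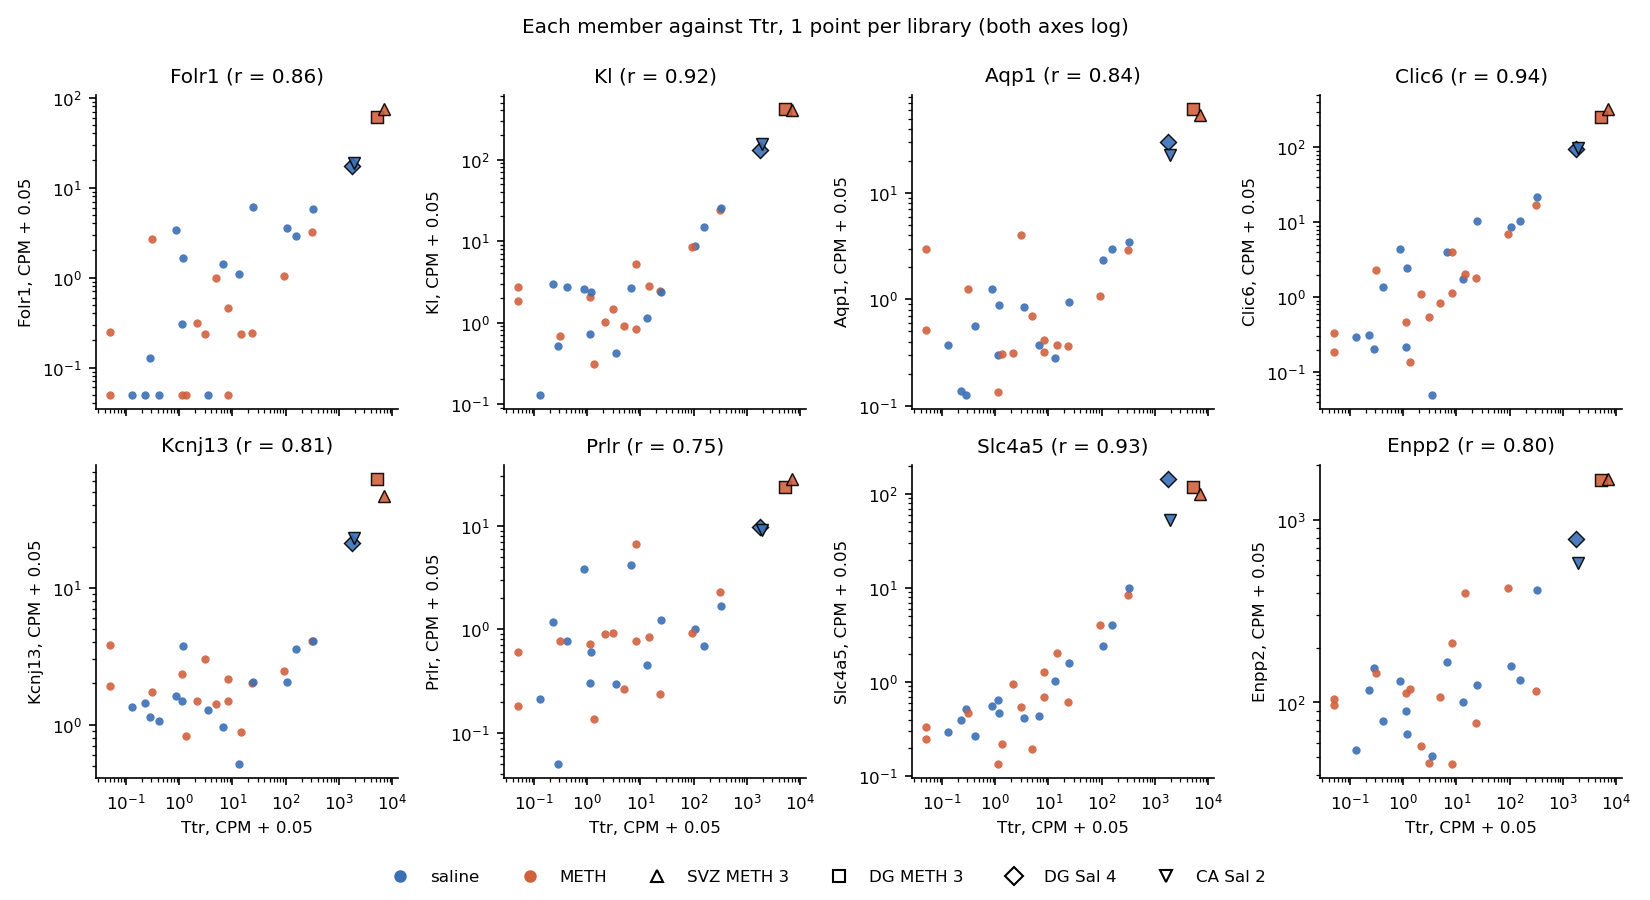
CPM of 8 members against the CPM of Ttr in the same library, with 0.05 added to both and both axes logarithmic. Each point is 1 of 32 libraries, and Pearson's r on log2(CPM + 1) is 0.75 to 0.94. Clic6, Kl and Slc4a5 follow Ttr over most of its range, while Enpp2 and Kcnj13 have a floor in libraries with little Ttr.

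The 10 genes outside the members most like Ttr over the 32 libraries, of 16113 compared by Pearson's r, were F5 (0.95), Mfrp (0.94), Sostdc1 (0.94), Cldn2 (0.93), Prr32 (0.90), Slco1a2 (0.89), Tmem72 (0.87), Lmx1a (0.86), Rbm47 (0.86) and Cltrn (0.85). Of these, 7 stand on the lists of plexus genes: coagulation factor F5 and the BMP antagonist Sostdc1 among secreted proteins, the tight junction protein Cldn2, the homeobox factor Lmx1a, Mfrp, Prr32 and Tmem72. The lists were chosen with earlier results of these data known, so the count of 7 is a description only. Cldn2 was at 108 CPM in DG METH 3 and 73.9 in SVZ METH 3, against a median of 0.399. Lmx1a, a factor of the roof plate from which the plexus forms, was at 11.2 CPM in both libraries, against a median of 0.125. Slco1a2 encodes an organic anion transporter and was at 45.4 CPM in SVZ METH 3, against a median of 0.0577, which is under the value of 3 reads.

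Among the listed plexus genes, SVZ METH 3 and DG METH 3 were the highest 2 libraries for 13 of 17 epithelial genes, 9 of 19 transport genes and 5 of 10 genes of secreted proteins in the files. They were so for 1 of 10 ependymal and 1 of 9 meningeal genes, and for 0 of 8 endothelial and 0 of 8 oligodendrocyte genes. Of 5 erythrocyte genes, 2 had this order (Hba-a2 and Hbb), and the summed erythrocyte markers were highest in the same libraries, at 314 CPM in SVZ METH 3 and 233 in DG METH 3 against a median of 132. Transport genes with a high level in brain tissue differed among themselves. Atp1b1, a subunit of the sodium pump, was at 1241 CPM in SVZ METH 3 and at a median of 1232, while the cation channel gene Trpm3 was at 221 CPM in SVZ METH 3 and 227 in DG METH 3, its highest libraries, against a median of 114. These 2 genes were chosen after their values were seen. The summed ependymal markers were highest in SVZ Sal 4, at 619 CPM, where Ttr was at 24.8 CPM, and stood at 356 in SVZ METH 3 and 314 in DG METH 3 against a median of 49.1. The summed meningeal and fibroblast markers were highest in DG Sal 4, at 281 CPM. Col1a2 and Ogn of that list were at or near 0 in every library, as was Cldn5 of the endothelial list. The part of these other cells in the members' levels was not tested.

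**Figure D3:**
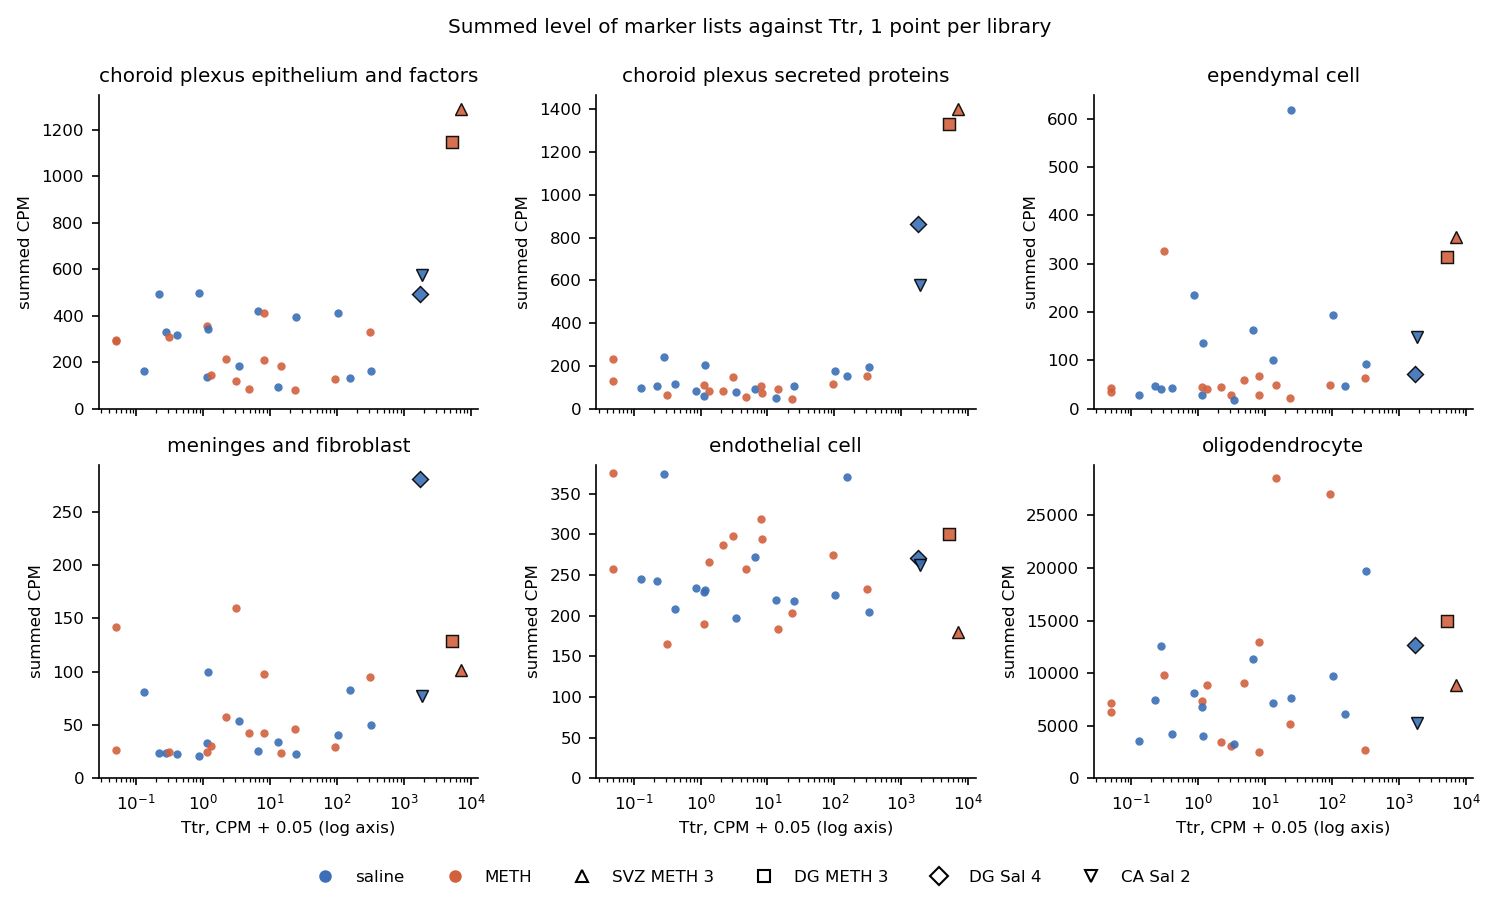
Summed CPM of 6 marker lists (linear axis from 0) against the CPM of Ttr (0.05 added, log axis), 1 point per library. The plexus epithelial and secreted lists rise to 1289 and 1400 CPM in SVZ METH 3, the ependymal list is highest in SVZ Sal 4, and the endothelial and oligodendrocyte lists are highest in libraries with less Ttr.

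The ratios between members were then compared. In the 9 libraries with over 1000 Ttr reads, a limit chosen after the values were seen, Kl had 57.7 to 94.0 reads for each 1000 Ttr reads and Clic6 had 45.3 to 83.8. Folr1 had 9.76 to 34.0, Aqp1 7.57 to 21.9, Kcnj13 6.57 to 25.5 and Prlr 3.99 to 9.31. Kl was thus the steadiest. Slc4a5 had 82.1 reads per 1000 Ttr reads in DG Sal 4 (1801 reads) and 14.1 to 41.8 in the other 8 libraries, with 22.6 in DG METH 3 (2587 reads). Col8a1, a collagen on the list of secreted proteins, was likewise highest in DG Sal 4, at 187 CPM against 51.3 in DG METH 3. SVZ METH 3, the library richest in Ttr, had the lowest ratio for Kl, Aqp1, Clic6, Kcnj13, Prlr, Slc4a5 and Enpp2. Enpp2 varied from 236 to 4474 reads per 1000 Ttr reads, the widest range.

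**Figure D4:**
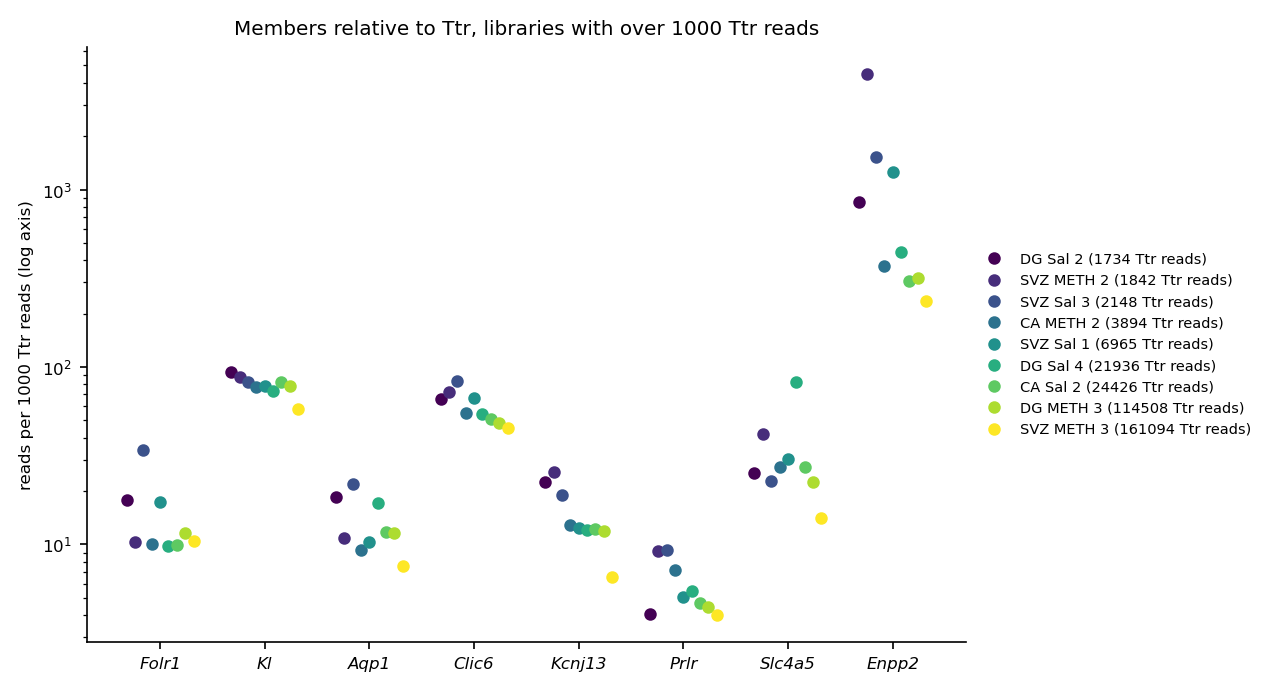
Reads of each member for each 1000 Ttr reads (log axis) in the 9 libraries with over 1000 Ttr reads, coloured from the fewest to the most Ttr reads. Kl stays between 57.7 and 94.0, while Slc4a5 stands apart at 82.1 in DG Sal 4 and Enpp2 spreads from 236 to 4474.

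Libraries with the same number in the headers shared their Ttr level in some cases and not in others. SVZ METH 3 and SVZ METH 4, both numbered 1670, had 161094 and 311 Ttr reads. SVZ METH 1 and 2, both numbered 1669, had 5 and 1842. Number 15 was CA Sal 2 with 24426 reads, DG METH 2 with 66 and NAc Sal 2 with 100. Number 24 was DG METH 3 with 114508 reads, NAc METH 3 with 118 and CA METH 3 with 33. Number 23 was DG Sal 4 with 21936 reads, CA Sal 4 with 13 and NAc Sal 4 with 5. Number 21 was CA METH 2 with 3894 reads, DG Sal 2 with 1734 and NAc METH 2 with 13, so both hippocampal libraries of that number were among the 9 with over 1000 Ttr reads. NAc Sal 2 and NAc METH 3, which bear numbers 15 and 24, were also the highest NAc libraries of their groups.

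In saline rats, the SVZ lines the ventricle in which the plexus lies, and its libraries were compared with those of the other 3 regions. No member passed an FDR under 0.01 with a fold change above 2 in edgeR's quasi-likelihood test, among 6 genes called of 15515 (0.0387%), and the SVZ and other libraries overlapped for each (1.36% of all genes did not). Ttr had a log2 fold change of -1.49 ± 2.26 (SE, 4 SVZ against 12 other libraries, FDR 0.741), while its median was 64.4 CPM in the SVZ and 2.24 CPM in the other regions. Mean and median thus pointed in opposite directions, and DG Sal 4 and CA Sal 2 were among the 12 other libraries. Folr1 had a median of 4.62 CPM in the SVZ against 0.648 (log2 fold change 0.20 ± 1.28, FDR 0.947), Clic6 9.52 against 1.49 (-0.72 ± 1.53, FDR 0.821), Kl 5.46 against 2.57 (-1.43 ± 1.62, FDR 0.640) and Slc4a5 1.97 against 0.484 (-2.26 ± 1.87, FDR 0.510). The fold changes of Aqp1, Kcnj13, Prlr and Enpp2 were between -1.41 and -0.09, with FDR from 0.555 to 0.954. Without the library of highest Ttr in each group, the fold change of 9 of 9 members tested was above 0, from 0.14 to 2.19, and the lowest FDR was 0.235. With the replicate number as a block, 7 of 9 were turned to higher in the SVZ, Ttr at 4.41 (edgeR FDR 0.401), and none was called. With no region taken as given, the 4 saline groups differed at no member (FDR 0.162 to 0.754, 0.00% of genes called). Slc4a5 and Aqp1 were at an unadjusted p under 0.05 there, as were 26.7% of all genes.

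METH was compared with saline within each region, with a call at FDR under 0.01 and a fold change above 1.5. No member was called in any region by edgeR's quasi-likelihood test, and 0.00% of all genes were called in each. At an unadjusted p under 0.05 there were 500 genes in the NAc (3.39%), 1890 in the DG (12.8%), 1046 in the CA (7.16%) and 402 in the SVZ (2.58%), and 1 of them was a member, Kcnj13 in the NAc. The biological coefficient of variation, the spread of a gene between replicates relative to its mean, was 2.10 for Ttr in the DG, 1.80 in the CA and 1.84 in the SVZ, against a common value of 0.311, 0.199 and 0.373.

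In the SVZ all 9 members tested were higher in the METH libraries on the fitted scale, and none passed. Ttr differed by 4.05 ± 2.54 (log2 fold change ± SE, n = 4 and 4, edgeR FDR 0.979), Kl by 3.50 ± 1.90, Clic6 by 3.0 ± 1.68, Aqp1 by 2.98 ± 1.55, Slc4a5 by 2.95 ± 1.65, Prlr by 2.87 ± 1.32, Folr1 by 2.25 ± 1.53, Kcnj13 by 2.18 ± 1.24 and Enpp2 by 1.83 ± 0.82, all with FDR 0.979. Without SVZ METH 3, 8 of these 9 turned to lower in METH, Ttr at -1.64 and Folr1 at -1.75, and Enpp2 stayed higher at 0.76. The median CPM was lower in METH for 6 of these 9 members and higher for Kl, Slc4a5 and Enpp2. The oligodendrocyte list had 8 of 8 members higher in METH, at a median of 0.83 beside 0.02 over all genes, and its part in Enpp2 was not tested.

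In the DG all 8 members tested were higher in METH on the fitted scale, and none passed. Ttr differed by 1.46 ± 2.62 (FDR 0.890), Kl by 1.51 ± 2.10, Folr1 by 1.43 ± 1.79, Kcnj13 by 1.33 ± 1.41, Clic6 by 1.22 ± 2.00, Aqp1 by 0.94 ± 1.67, Prlr by 0.81 ± 1.56 and Enpp2 by 0.78 ± 1.28, with FDR of 0.772 to 0.900. Without DG METH 3 all 8 were lower in METH, Ttr at -5.57, and without DG Sal 4 all 8 were higher, Ttr at 4.75. Slc4a5, which has 2 high libraries and few reads elsewhere, fell under the filter on low counts. Its mean was lower in METH, at 30.05 ± 59.3 CPM against 37.4 ± 71.67 in Sal (SD), and the groups overlapped.

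In the CA all 6 members tested were lower in METH on the fitted scale, and none passed. Ttr differed by -2.58 ± 2.26 (FDR 0.803), Kl by -2.62 ± 1.87, Slc4a5 by -2.41 ± 1.61, Clic6 by -2.35 ± 1.81, Kcnj13 by -1.65 ± 1.13 and Enpp2 by -1.29 ± 0.73, with FDR of 0.715 to 0.803. Without CA Sal 2 all 6 were higher in METH, Ttr at 3.73, and without CA METH 2 Ttr was at -6.93. The sign of each difference tested in the DG, CA and SVZ was thus that of the group holding the library richest in Ttr.

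In the NAc, where the Ttr medians were lowest, 4 members passed the filter. Kcnj13 was higher in METH by 1.12 ± 0.33 (edgeR FDR 0.999), at 2.33 ± 1.00 CPM against 1.10 ± 0.207 (SD, n = 4 and 4). Kl differed by 0.46 ± 0.54, Prlr by 0.42 ± 1.22 and Enpp2 by 0.05 ± 0.31, with FDR 0.999. Without NAc METH 3, the library low in striatal markers, Kcnj13 was at 1.29, Kl at 0.01, Prlr at -1.79 and Enpp2 at -0.28. Sequencing runs were inferred from labels in the headers, and 1 of them held both treatments. In that run, Kcnj13 was at 1.87 and 2.28 CPM in METH 1 and 2 against 1.39 and 1.01 in Sal 3 and 4. With the run as a term its difference was 0.81, no longer at an unadjusted p under 0.05.

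**Figure D5:**
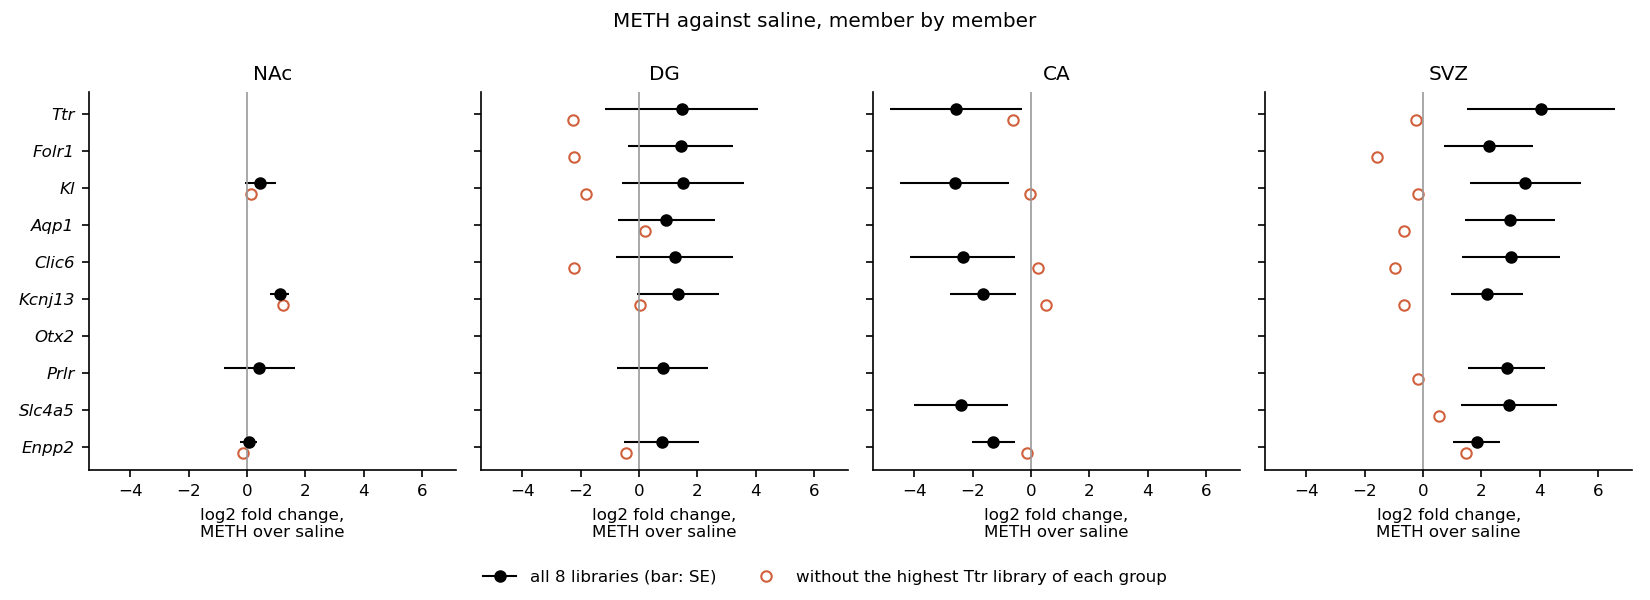
Log2 fold change of METH over saline for each member tested, by region. Filled points are the fit of 8 libraries, with bars for the SE calculated from its F statistic. Open points leave out the library of highest Ttr in each group. Ttr moves from 4.05 to -0.24 in the SVZ and from 1.46 to -2.27 in the DG, and Kcnj13 in the NAc from 1.12 to 1.22.

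The sequencing runs inferred from the header labels split the treatments unevenly. The study's methods give 2 batches for the RNA-seq, which were not matched to these labels. In the DG, the run with both treatments gave Ttr at 3.04 and 4.77 CPM in METH 1 and 2 against 0.820 in Sal 3. In the CA, 1 run gave 1.29 and 311 CPM in METH 1 and 2 against 1.09 in Sal 4, and another gave 2.15 and 8.22 in METH 3 and 4 against 3.39 in Sal 3. CA Sal 2, DG METH 3 and DG Sal 4 were in runs or merged sets where their region had no library of the other treatment, so run and treatment cannot be told apart for them. The SVZ libraries all carried 1 label. Whether the METH difference itself differed between regions was tested in 1 fit of all 32 libraries: FDR was 0.811 to 0.946 for the 9 members tested, and 0.00% of genes were called (7.74% at an unadjusted p under 0.05, 0 members among them).

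Most other plexus genes had differences of the same sign as the members in the SVZ, CA and DG, and none passed the test. In the SVZ, 13 of 15 epithelial genes were higher in METH (median log2 fold change 1.17), beside a median of 0.02 over all genes. So were 7 of 9 genes of secreted proteins (1.52) and 16 of 18 transport genes (0.46). The summed epithelial list was at 1289 CPM in SVZ METH 3, 128 to 308 in the other SVZ METH libraries and 163 to 411 in SVZ Sal. The secreted list was at 1400, 64.5 to 116 and 107 to 205 CPM. These lists were not refitted without SVZ METH 3. The differences of largest size were those of Cldn2 (3.55), Cldn1 (3.51) and Mfrp (3.22) among epithelial genes, Sostdc1 (3.69), F5 (2.85) and Col8a1 (2.55) among secreted proteins, and Kcne2 (2.73), Slc4a2 (1.18) and Slc16a8 (1.15) among transport genes, at FDR 0.979 each. In the CA, 8 of 12 epithelial, 7 of 8 secreted and 13 of 18 transport genes were lower in METH, with medians of -0.44, -0.92 and -0.10 beside 0.01 over all genes. Tmem72 (-2.99), Mfrp (-2.31), Cdh1 (1.55), F5 (-2.67), Col8a1 (-1.57), Igf2 (-1.19), Kcne2 (-1.60), Stra6 (0.55) and Slc4a2 (-0.47) had the largest differences of their lists. In the DG, 11 of 15 epithelial, 5 of 8 secreted and 15 of 18 transport genes were higher in METH. Cldn2 (1.84), Calml4 (1.62), Mfrp (1.40), Col8a1 (-1.82), Wfdc2 (-0.83), F5 (0.75), Car12 (1.02) and Slc13a4 (0.65) were among those that differed most. In the NAc the medians were 0.13, 0.72 and 0.10. There, 5 of 7 meningeal and fibroblast genes were higher in METH at an unadjusted p under 0.05, beside 2.42% of all genes. The lowest edgeR FDR of that list was 0.999. Its summed level was 22.8 to 25.4 CPM in NAc Sal, and 26.6, 24.3, 42.9 and 142 CPM in NAc METH 1 to 4. Slc13a4 (1.69), Lrp2 (0.41), Mfrp (1.31), Oca2 (1.01), Htr2c (-0.27), Igfbp2 (1.81), Ace (-1.61) and Igf2 (1.05) were among those that differed most there, and no gene of these lists was called in any region.

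In saline, 8 of 16 epithelial genes, 4 of 9 genes of secreted proteins and 8 of 19 transport genes were at a higher level in SVZ libraries than elsewhere, with medians of -0.03, -0.04 and -0.06 beside 0.04 over all genes. The ependymal list, whose cells line the ventricle wall, had 10 of 10 members higher in the SVZ, at a median of 1.601, and 7 of them at an unadjusted p under 0.05, beside 12.9% of all genes. None of them was called. Cldn1 (-2.74), Cldn2 (-1.73), Cldn3 (-1.70), Col8a1 (-3.49), Sostdc1 (-1.66), F5 (-1.60), Kcne2 (-2.03) and Trpv4 (-1.27) were among those that differed most in the plexus lists.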

How the data were processed

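Total RNA depleted of ribosomal RNA was sequenced in 32 libraries of 4 regions and 2 treatments, with 4 libraries per group. The deposited values are raw counts per gene, which the authors made with cutadapt 2.7, FastQC 0.11.4, STAR 2.5.2b on rn6 and featureCounts 1.6.3 without strand, at a mapping quality of at least 10. Versions come from the submitters' processing notes, the file headers and the study's methods. Groups were taken from the labels, and nothing in them ties libraries to separate rats beyond the replicate number, so p-values measure the spread between these samples, which may be technical. NAc and CA saline libraries share library numbers, and their deviations from the group means correlated in all 4 pairs (r of 0.118 to 0.245), so they may not be independent in the comparison of regions. Same-group libraries differed beyond sampling noise in 48 of 48 pairs.

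Tests were run with edgeR 4.0.16 (upper-quartile library sizes, filterByExpr, quasi-likelihood F-test, Benjamini-Hochberg adjustment over all genes tested) and limma 3.58.1 under R 4.3.3. METH was compared with saline in each region (FDR under 0.01, fold change above 1.5), the SVZ with the other 3 regions in the 16 saline libraries (fold change above 2), the 4 regions with each other, and the METH effect between regions in all 32 libraries. The SE given with a log2 fold change was calculated as its absolute value divided by the square root of the F statistic. CPM used upper-quartile library sizes of all genes. Python 3.11.15, numpy 2.4.6, pandas 2.3.3 and matplotlib 3.10.9 were used for levels, sequences and plots. The tests were checked on simulated counts with the same modest spread for every gene and no outlying library. That check does not cover genes as uneven between replicates as the members.

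All 10 members are named in each comparison where they were tested. Of each plexus list, the 3 genes of largest absolute log2 fold change are named, apart from some that are not reported here, and of the lists of other cells only counts, medians and the called gene, which is narrower than the rule set out. The 10 genes most like Ttr were chosen by Pearson's r. The members and lists were chosen with earlier results of these data known. Alternatives were TMM, DESeq2 1.42.0, no filter, the replicate block, 2 RUVr factors (the number removed by the study is not given in the sources used here), a fit of all libraries or of 4 groups, and leaving out each library. After seeing the data, the run as a covariate, the series matrix of 14712 genes (a second count, in which Otx2 was not matched), DG replicates 3 and 4 only, summed same-number libraries and leaving out the library of highest Ttr were added. Intervals and floors cover counting error only.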

Additional observations from a re-analysis of the deposited data

Results flagged for a closer look

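Within each group of 4 libraries, the highest or lowest value of a member was set against the others by the ratio of its gap to the nearest value over the whole range, by Dixon's critical value. Of 73 sets of 4 libraries, 48 exceeded it, in 9 libraries. About 1 set in 20 does so by chance where values are normally distributed. The CPM values of the members were strongly skewed, so this share does not hold for them. The members of 1 library are also not independent of each other. SVZ METH 3 stood above its 3 replicates in Ttr (7128 CPM), Folr1 (74.2 CPM), Kl (411 CPM), Aqp1 (54.0 CPM), Clic6 (323 CPM), Kcnj13 (46.8 CPM), Prlr (28.4 CPM) and Slc4a5 (100.2 CPM). DG METH 3 stood above its 3 replicates in Ttr (5268 CPM), Folr1 (60.8 CPM), Kl (414 CPM), Aqp1 (61.1 CPM), Clic6 (256 CPM), Kcnj13 (62.6 CPM), Prlr (23.4 CPM), Slc4a5 (119 CPM) and Enpp2 (1663 CPM). CA Sal 2 stood above its 3 replicates in Ttr (1904 CPM), Folr1 (18.8 CPM), Kl (156 CPM), Aqp1 (22.4 CPM), Clic6 (96.7 CPM), Kcnj13 (23.1 CPM), Prlr (8.96 CPM), Slc4a5 (52.2 CPM) and Enpp2 (579 CPM). DG Sal 4 stood above its 3 replicates in Ttr (1764 CPM), Kl (129.7 CPM), Aqp1 (30.3 CPM), Clic6 (96.2 CPM), Kcnj13 (21.3 CPM), Otx2 (0.563 CPM), Slc4a5 (145 CPM) and Enpp2 (789 CPM). CA METH 2 stood above its 3 replicates in Ttr (311 CPM), Folr1 (3.12 CPM), Kl (23.9 CPM), Aqp1 (2.88 CPM), Clic6 (17.2 CPM) and Slc4a5 (8.48 CPM). NAc METH 3 stood above its 3 replicates in Ttr (8.03 CPM), Clic6 (3.95 CPM), Prlr (6.60 CPM) and Enpp2 (211 CPM). NAc Sal 2 stood above its 3 replicates in Ttr (6.52 CPM) and Folr1 (1.37 CPM). NAc Sal 1 stood below its replicates in Kl (0.463 CPM), and NAc METH 4 above them in Aqp1 (2.94 CPM).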

How the results depend on the processing

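Among 1234 values for the members under the alternatives, 96 turned their direction, 0 passed the threshold and 1138 did neither. The 1138 include the values of the tests among the 4 regions and of the interaction. Those tests have no direction, so their values could only change their side of the threshold. No alternative that was run thus called a member, but not every member had an FDR in each. DESeq2 gave one for 6 members in the test among the 4 regions and for 1 in that of the interaction. In the other comparisons a member without an FDR was counted as not called. TMM library sizes, no filter on low counts, the series matrix, 1 fit of all 32 samples, DG replicates 3 and 4 only and the sum of same-number SVZ METH libraries turned no member. Only members tested in the main fit and in the alternative were compared, so those removed by the main filter were not evaluated. The series matrix covered 3 members in the NAc and 5 in the CA, against 4 and 6 in the main fit. With the run inferred from the header labels as a term, the log2 fold change turned in the NAc for Kl (-0.55) and Prlr (-0.54). It turned in the DG for Folr1 (-2.62), Kl (-1.14), Clic6 (-2.76), Prlr (-2.78) and Enpp2 (-0.79). In the CA it turned for Ttr (3.33), Kl (3.30), Clic6 (5.76), Kcnj13 (0.63), Slc4a5 (2.17) and Enpp2 (0.20). With the replicate block, the log2 fold change turned in the DG for Ttr (-1.58), Folr1 (-0.63), Kl (-1.21), Clic6 (-1.72), Prlr (-0.075) and Enpp2 (-0.15), in the SVZ for Folr1 (-0.69), Clic6 (-0.048) and Kcnj13 (-0.025) and in the comparison of the SVZ against the other 3 regions for Ttr (4.41), Kl (1.81), Aqp1 (0.79), Clic6 (1.90), Kcnj13 (0.16), Slc4a5 (1.22) and Enpp2 (0.26). With 2 RUVr factors, the log2 fold change turned in the NAc for Prlr (-0.16), in the DG for Clic6 (-0.21), in the CA for Kl (0.26), in the SVZ for Folr1 (-0.24) and in the comparison of the SVZ against the other 3 regions for Ttr (2.07) and Clic6 (0.57). With DESeq2, the log2 fold change turned in the comparison of the SVZ against the other 3 regions for Ttr (2.497), Kl (1.70), Aqp1 (1.36) and Kcnj13 (1.01). With the SVZ set against the mean of 3 regions, the log2 fold change turned in the comparison of the SVZ against the other 3 regions for Ttr (0.58) and Clic6 (0.12). Without the library of highest Ttr in each group, the log2 fold change turned in the NAc for Enpp2 (-0.12), in the DG for Ttr (-2.27), Folr1 (-2.24), Kl (-1.82), Clic6 (-2.23) and Enpp2 (-0.45), in the CA for Clic6 (0.23) and Kcnj13 (0.50), in the SVZ for Ttr (-0.24), Folr1 (-1.57), Kl (-0.17), Aqp1 (-0.65), Clic6 (-0.95), Kcnj13 (-0.65) and Prlr (-0.17) and in the comparison of the SVZ against the other 3 regions for Ttr (1.22), Kl (0.70), Aqp1 (0.97), Clic6 (1.87), Kcnj13 (0.89), Prlr (0.14), Slc4a5 (0.84) and Enpp2 (0.25). Leaving out each library in turn moved the log2 fold change in the NAc Prlr from -1.79 to 1.76 and Enpp2 from -0.28 to 0.21, and in the DG Ttr from -5.57 to 4.75, Folr1 from -3.77 to 2.97, Kl from -4.58 to 4.29, Aqp1 from -2.43 to 3.58, Clic6 from -4.79 to 3.79, Kcnj13 from -1.74 to 3.10, Prlr from -3.06 to 2.02 and Enpp2 from -1.88 to 2.21, and in the CA Ttr from -6.93 to 3.73, Kl from -5.79 to 3.15, Clic6 from -4.97 to 2.87, Kcnj13 from -2.16 to 1.02, Slc4a5 from -4.46 to 1.94 and Enpp2 from -1.61 to 0.065, and in the SVZ Ttr from -1.64 to 5.44, Folr1 from -1.75 to 2.66, Kl from -1.30 to 4.63, Aqp1 from -1.11 to 3.44, Clic6 from -1.54 to 3.59, Kcnj13 from -0.84 to 2.58, Prlr from -0.44 to 3.25 and Slc4a5 from -0.75 to 4.24, and in the comparison of the SVZ against the other 3 regions Folr1 from -0.049 to 0.84, Clic6 from -1.31 to 0.036 and Enpp2 from -0.78 to 0.36. The other members tested kept their direction there. The number of genes called over all genes moved more. DESeq2 called 3 in the NAc, 193 in the DG, 13 in the CA, 2 in the SVZ, 125 in the SVZ against the other 3 regions, 1495 among the 4 regions and 27 for the interaction. With 2 RUVr factors, 180 were called in the SVZ against the other 3 regions, 1148 among the regions and 78 for the interaction. For the SVZ against the other 3 regions, 3 were called with no filter on low counts, 10 in the fit of 4 groups and 3 without the library of highest Ttr in each group. Leaving out each library gave 1 to 24 there, 0 to 463 among the regions and 0 to 1 for the interaction. The cause of these moves was not tested. Sal and METH libraries with the same replicate number did not deviate together in every pair of any region (r of -0.772 to 0.397). They were not paired in the main tests. Sal and METH libraries that share a library number in the headers were not compared in this way. Saline NAc and CA libraries, which also share library numbers, correlated at 0.118 to 0.245 in all 4 pairs, while the other pairs of regions did not all exceed 0.1. The tests of regions in saline without the block take these libraries as separate. The block changed no call of a member. DG replicates 1 and 2 carry library numbers of the other treatment. Otx2 had at most 7 reads, and Folr1 had 3 or fewer in 13 libraries, so differences at that level were not detectable.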

Other observations

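Markers of other cells differed in sign and size between the comparisons, and their part in the members' values was not tested. Counts are of the markers tested, by the sign of the log2 fold change. Ependymal markers were higher in METH for 1 of 6 in the NAc (median -0.57), 7 of 9 in the DG (median 0.11), 1 of 8 in the CA (median -0.83) and 1 of 10 in the SVZ (median -0.45), and for 10 of 10 in the SVZ of saline rats (median 1.601). Meningeal and fibroblast markers were higher in METH for 7 of 7 in the NAc (median 1.23), 3 of 7 in the DG (median -0.53), 6 of 7 in the CA (median 0.51) and 3 of 7 in the SVZ (median -0.050), and for 3 of 7 in the SVZ of saline rats (median -0.22). Endothelial markers were higher in METH for 6 of 7 in the NAc (median 0.16), 1 of 7 in the DG (median -0.079), 7 of 7 in the CA (median 0.40) and 2 of 7 in the SVZ (median -0.055), and for 1 of 7 in the SVZ of saline rats (median -0.31). Oligodendrocyte markers were higher in METH for 4 of 8 in the NAc (median -0.001), 6 of 8 in the DG (median 0.10), 0 of 8 in the CA (median -0.27) and 8 of 8 in the SVZ (median 0.83), and for 8 of 8 in the SVZ of saline rats (median 0.53). Erythrocyte markers were higher in METH for 5 of 5 in the NAc (median 0.28), 2 of 5 in the DG (median -0.040), 1 of 5 in the CA (median -0.049) and 4 of 5 in the SVZ (median 0.33), and for 4 of 5 in the SVZ of saline rats (median 0.16). Striatal neuron markers were higher in METH for 0 of 8 in the NAc (median -0.63), 0 of 8 in the DG (median -2.16), 6 of 8 in the CA (median 0.60) and 0 of 8 in the SVZ (median -1.26), and for 8 of 8 in the SVZ of saline rats (median 0.97). Dentate granule neuron markers were higher in METH for 1 of 4 in the NAc (median -0.13), 3 of 4 in the DG (median 1.55), 1 of 4 in the CA (median -0.90) and 3 of 4 in the SVZ (median 1.12), and for 0 of 4 in the SVZ of saline rats (median -0.63). CA pyramidal neuron markers were higher in METH for 2 of 3 in the NAc (median 0.12), 3 of 3 in the DG (median 1.52), 1 of 3 in the CA (median -0.41) and 2 of 3 in the SVZ (median 0.11), and for 1 of 3 in the SVZ of saline rats (median -0.17). Thalamic neuron markers were higher in METH for 3 of 6 in the NAc (median -0.033), 2 of 6 in the DG (median -0.28), 4 of 6 in the CA (median 0.062) and 5 of 6 in the SVZ (median 0.54), and for 6 of 6 in the SVZ of saline rats (median 2.13). Medians over all genes were 0.03 in the NAc, -0.01 in the DG, 0.01 in the CA, 0.02 in the SVZ and 0.04 for the SVZ of saline rats. Of the thalamic list, Prkcd was called there, at a log2 fold change of 3.81 ± 0.59 (SE, edgeR FDR 0.00778). The Prkcd level was highest in SVZ Sal 1, at 935 CPM.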
